A study of Mus musculus with 4 samples.

Results

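The 6 genes described here encode 4 serum amyloid A proteins (Saa1, Saa2, Saa3 and Saa4), lipocalin 2 (Lcn2) and haptoglobin (Hp), which belong to the acute phase response, the change in secreted proteins during inflammation. They were taken by name: every probe whose gene symbol in the scanner table was 1 of the 6 was used, which gave 9 of 45281 probes and 6 of 28908 named genes. Saa1 had 2 probes, Hp had 3, and each of the other genes had 1. The samples were tumours of the small intestine of ApcMin/+ mice of the C57BL/6J strain at 30 weeks of age. These animals carry a germline truncating mutation in 1 copy of Apc, a brake on Wnt signalling, and form many intestinal adenomas. From each of 2 mice, 3 small tumours (at most 2 mm across) went into 1 pool and 3 large tumours (4 to 5 mm) into another, so each size had 2 pools and each pool had 1 Illumina bead array. All 4 pools shared genotype, strain and age. The labels do not say where along the small intestine the tumours lay, and normal mucosa was not analysed here.

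Serum amyloid A proteins are small, lipid-binding proteins that travel on high density lipoprotein. In mice Saa1 and Saa2 are produced by the liver in large amounts during inflammation and also by the epithelium of the lower small intestine and colon, Saa3 is produced mainly outside the liver, by macrophages, fat cells and epithelium, and Saa4 is produced at a steady level. Lcn2 is a secreted protein of neutrophils and inflamed epithelium that binds bacterial siderophores and so keeps iron from bacteria, and Hp binds free haemoglobin in plasma. Interleukin 6, interleukin 1 and interleukin 22 are known inducers of these genes, through STAT3, NF-kB and C/EBP transcription factors.

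The 4 serum amyloid A genes lie next to each other on chromosome 7, in the order Saa3, Saa4, Saa1, Saa2, by RefSeq names of the assembly GRCm38.p6. Saa1 and Saa2 are the closest pair. Over the 300 bases from 250 before to 50 after the start of each gene, Saa1 and Saa2 shared 95.3% of aligned positions, against 47.2% to 54.2% for the other pairs among the 5 members with an entry in RefSeq's promoter table. RefSeq lists Saa2 as an older name of Saa1 and Saa1 as an older name of Saa2, and the scanner table gives neither probe sequences nor transcript accessions. The probes called Saa1 and Saa2 therefore could not be assigned to 1 of the pair, and their names below are those of the file. The promoters of Saa1 and Saa2 are shown because of this likeness. Those of Saa3 and Lcn2 are shown because both genes had their lowest signal in the small pool of mouse 2. Capitals mark matches to the C/EBP motif TTGCNNAA and to the NF-kB motif GGRRNNYYCC, each searched on both strands. In these letters R is A or G, Y is C or T, and N is any base.

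Saa1, chr7:46742931-46743230, minus strand, GRCm38.p6, with a C/EBP match first and an NF-kB match after it: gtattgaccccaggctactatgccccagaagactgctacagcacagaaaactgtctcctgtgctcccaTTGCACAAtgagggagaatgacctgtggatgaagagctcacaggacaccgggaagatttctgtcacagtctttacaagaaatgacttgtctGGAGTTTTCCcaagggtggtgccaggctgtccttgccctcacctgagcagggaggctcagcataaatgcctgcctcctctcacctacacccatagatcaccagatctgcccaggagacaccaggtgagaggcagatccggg
Saa2, chr7:46751583-46751882, plus strand, GRCm38.p6, with a C/EBP match: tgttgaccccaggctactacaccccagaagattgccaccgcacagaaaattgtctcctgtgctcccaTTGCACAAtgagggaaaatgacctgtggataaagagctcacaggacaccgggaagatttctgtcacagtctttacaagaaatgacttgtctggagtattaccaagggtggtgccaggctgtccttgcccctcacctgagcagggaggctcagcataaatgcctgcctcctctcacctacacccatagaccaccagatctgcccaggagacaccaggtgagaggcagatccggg
Saa3, chr7:46715627-46715926, minus strand, GRCm38.p6, with a C/EBP match: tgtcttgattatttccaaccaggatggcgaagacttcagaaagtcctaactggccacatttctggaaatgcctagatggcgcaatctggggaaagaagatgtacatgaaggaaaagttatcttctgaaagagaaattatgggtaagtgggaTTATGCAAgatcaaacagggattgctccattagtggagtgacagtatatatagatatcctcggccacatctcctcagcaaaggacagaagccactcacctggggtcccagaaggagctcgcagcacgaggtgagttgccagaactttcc
Lcn2, chr2:32387690-32387989, minus strand, GRCm38.p6, with a C/EBP match first and an NF-kB match after it: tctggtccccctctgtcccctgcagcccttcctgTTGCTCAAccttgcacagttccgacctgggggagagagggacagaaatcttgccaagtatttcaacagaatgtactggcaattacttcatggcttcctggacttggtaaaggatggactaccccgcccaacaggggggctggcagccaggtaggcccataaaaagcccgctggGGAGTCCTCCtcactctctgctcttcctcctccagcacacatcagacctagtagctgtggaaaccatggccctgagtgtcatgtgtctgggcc

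Each of the 5 promoters held at least 1 C/EBP match, and Saa4 held 2. A C/EBP match was present in 10.8% of all 32851 promoters of the same length. The NF-kB motif GGRRNNYYCC matched in Saa1, at -91 to -82 from the start, and in Lcn2, at -43 to -34, and in 11.2% of all promoters. On either strand the base after the leading GG of both matches is A, so a motif that requires GGG there would not match. The Saa2 window had no match to GGRRNNYYCC. The STAT motif TTCNNNGAA had no match in the 5 windows and matched in 8.3% of all promoters. These matches describe letters only, and the motifs did not overlap each other in the sequences shown.

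The arrays had 18969 to 19990 detected probes each, where a probe counts as detected when its signal exceeds that of the array's negative controls with a detection p under 0.05. The array least like the rest was that of small tumours from mouse 2: its Pearson correlation across probes with them was 0.936 to 0.949, against 0.961 to 0.977 among the other 3 arrays. The listed markers of intestinal epithelium, among them Krt8, Vil1, Lgals4, Cdx1 and Cdx2, were detected on all 4 arrays, except Epcam. Epcam had signals of 56.7 to 74.2 and was detected on 2 arrays. Of 20214 tested probes (13906 genes), 0% passed the limma test of tumour size without the mouse as a block, where 1563 had an unadjusted p under 0.05, and 0.594% passed with it.

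Saa3, the serum amyloid A gene expressed mainly outside the liver, had the widest difference with tumour size over both mice among the members. Its deposited bead signal in mouse 1 was 2491 ± 98.3 (SE over 44 beads) in the small pool and 4217 ± 148 (SE over 26 beads) in the large pool. In mouse 2 it was 300.3 ± 12.3 (SE over 29 beads) in the small pool and 2326 ± 133 (SE over 32 beads) in the large pool. The small pool of mouse 2 was the low array, and the other 3 lay within a narrower band. The groups overlapped, since the small pool of mouse 1 was brighter than the large pool of mouse 2. The ratio of large to small signal was 1.69 ± 0.0895 (SE from beads) in mouse 1 and 7.75 ± 0.546 in mouse 2. The error over beads is a technical error of 1 array and does not cover tumours or animals.

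The normalized log2 level of Saa3 averaged 9.59 ± 2.45 (SD, n = 2) for small tumours and 11.63 ± 0.76 (SD, n = 2) for large ones, a difference of 2.04 or 4.11-fold. The 95% interval of this difference, -0.35 to 4.42, included 0, and limma with adjustment over all probes gave no call (adjusted p = 0.670, higher in 2 of 2 mice). With the mouse as a replicate block the interval was 1.04 to 3.03 and the limma adjusted p was 0.0726. Without the small pool of mouse 2 the difference was 0.30. An exact permutation test of 2 arrays against 2 cannot go below p = 0.333 (two-sided), so no single gene could pass it.

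**Figure D1:**
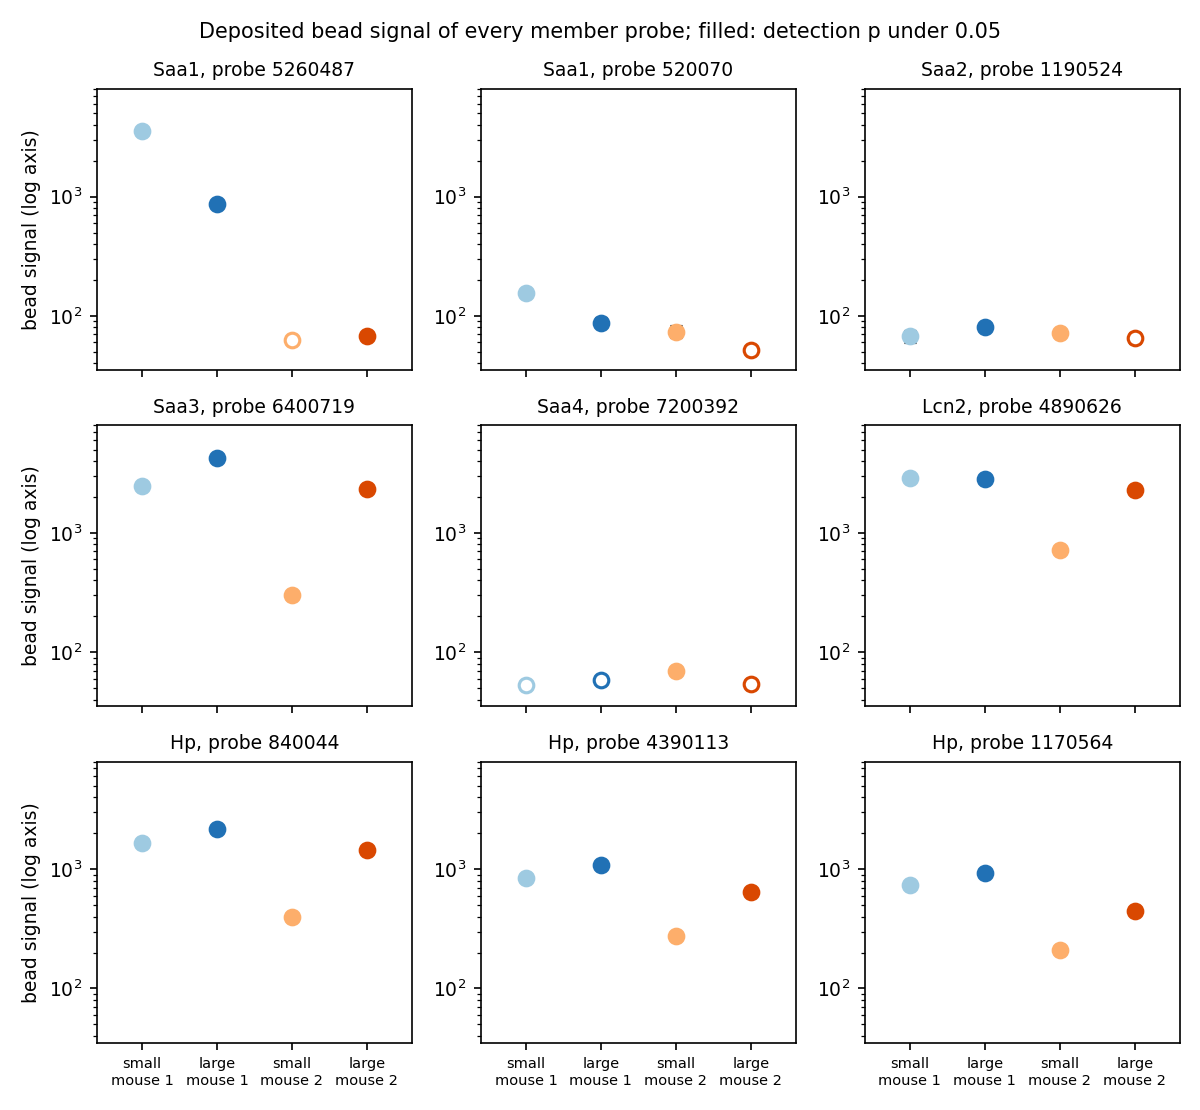
Deposited bead signal (log axis) of the 9 member probes on the 4 arrays, with the standard error over beads as the error bar (mostly hidden by the marker); open circles are arrays on which the probe was not detected. Saa3, Lcn2 and the 3 Hp probes were lowest in the small pool of mouse 2, and Saa1 probe 5260487 was bright in mouse 1 only.

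Lcn2, the siderophore-binding protein, differed with size in mouse 2 and hardly at all in mouse 1. Its signal in mouse 1 was 2868 ± 124 (SE over 33 beads) in the small pool and 2829 ± 74.8 (SE over 47 beads) in the large pool. In mouse 2 it was 724.04 ± 33.9 (SE over 39 beads) and 2304 ± 163 (SE over 25 beads). In mouse 1 the pools differed by less than the error over beads, with a ratio of large to small of 0.986 ± 0.0501, and in mouse 2 the ratio was 3.18 ± 0.270. Both large pools lay between the 2 small pools, so the groups overlapped. The normalized log2 difference over both mice was 0.94 with a 95% interval of -0.67 to 2.55 (limma adjusted p = 0.732, higher in 2 of 2 mice; 0.423 with the block). It had the opposite sign, -0.20, when the small pool of mouse 2 was left out. The sign in mouse 1 was also not settled by the scaling: the log2 difference was 0.05 as normalized and -0.03 with median scaling.

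Hp, the haemoglobin-binding plasma protein, had the same order of arrays on each of its 3 probes. On the brightest, 840044, the signal in mouse 1 was 1661 ± 48.8 (SE over 42 beads) in the small and 2177 ± 69.3 (SE over 40 beads) in the large pool. In mouse 2 it was 399.1 ± 23.7 (SE over 32 beads) in the small and 1452 ± 55.3 (SE over 45 beads) in the large pool. The large pool of mouse 1 was the highest, the small pool of mouse 1 the next, then the large pool of mouse 2, and the small pool of mouse 2 was the lowest. The ratio of large to small signal was 1.31 in mouse 1 and 3.64 in mouse 2 for this probe. For probe 4390113 it was 1.29 and 2.31, and for probe 1170564 it was 1.27 and 2.12. The 3 probes thus differed little in mouse 1, and the brightest gave the widest ratio in mouse 2.

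The normalized log2 difference of Hp was 1.27 for probe 840044 (95% interval -0.47 to 3.00; limma adjusted p = 0.691, higher in 2 of 2 mice; 0.220 with the block). It was 0.97 and 0.90 for the other probes. Without the small pool of mouse 2 these became 0.05, -0.05 and -0.24.

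Saa1 followed the animal more than the size of the tumours. Probe 5260487 had a signal of 3532 ± 125 (SE over 61 beads) in the small pool and 872.1 ± 37.7 (SE over 50 beads) in the large pool of mouse 1. In mouse 2 it was 63.2 ± 3.94 (SE over 53 beads) in the small pool, and 67.7 ± 4.16 (SE over 51 beads) in the large pool. The exact detection p-values given by the scanner software were 0.121 and 0.0317, so the small pool of mouse 2 was not detected. Both pools of mouse 1 were therefore far above both pools of mouse 2. Within mouse 1 the large pool had 0.247 ± 0.0138 (SE from beads) of the signal of the small pool, and within mouse 2 both pools lay at or near background. Only the difference within mouse 1 could be measured on both sides: it was -1.99 on the normalized log2 scale. Over both mice the difference was -0.82 (95% interval -6.33 to 4.68; limma adjusted p = 0.938; 0.552 with the block). It was 2.77 without the small pool of mouse 1 and 1.60 without the large pool of mouse 2.

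The other Saa1 probe, 520070, was much dimmer and had a similar order in mouse 1, with 156.7 ± 12.7 (SE over 24 beads) in the small and 87.7 ± 7.43 (SE over 29 beads) in the large pool. In mouse 2 it had 73.9 ± 7.62 (SE over 20 beads) in the small pool and was not detected in the large pool (51.4). The 2 probes disagreed in mouse 2: the dim one was detected in the small pool only, and the bright one in the large pool only. The log2 difference of the dim probe over both mice was -1.03 (95% interval -2.63 to 0.57; limma adjusted p = 0.715).

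Saa2 stayed close to background. Its signal was 67.6 ± 6.76 (SE over 24 beads) in the small and 80.1 ± 5.89 (SE over 30 beads) in the large pool of mouse 1, and 71.6 ± 4.63 (SE over 35 beads) and 65.7 ± 6.69 (SE over 23 beads) in mouse 2. It was detected on 3 of 4 arrays, all but the large pool of mouse 2. The log2 difference over both mice was 0.15 (95% interval -0.59 to 0.89; limma adjusted p = 0.910). Saa4, the steadily expressed member, was detected on 1 of 4 arrays, the small pool of mouse 2 (69.3), and was not well above background in large tumours. Its signal on the other arrays was 52.9 to 58.3, and it was not tested.

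Of the 5 tested member genes, 3 (Saa3, Lcn2 and Hp) were higher in large tumours in both mice, and 2 (Saa1 and Saa2) had opposite signs in the mice. In mouse 2 each of these 2 had 1 undetected array and lay near background, so its sign there is not settled. The dimmer Saa1 probe, not counted here, was lower in the large pools of both mice (-1.37, and a bound of -0.16 in mouse 2). With median scaling or the deposited signal only Saa3 and Hp were higher in both, since Lcn2 in mouse 1 then had the other sign. For comparison, large tumours of both animals had the higher level for 30.7% of all tested genes and the lower for 26.7%. None of the 5 reached 2-fold with 1 sign in both animals, which 0.942% of all genes did upwards and 0.798% downwards. None of the 5 had groups that did not overlap, against 39.8% of all genes. The median log2 difference of the 5 was 0.94, and that of all tested genes was 0.02. In bulk tumours, fewer cells that express a gene and less RNA per cell cannot be told apart.

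**Figure D2:**
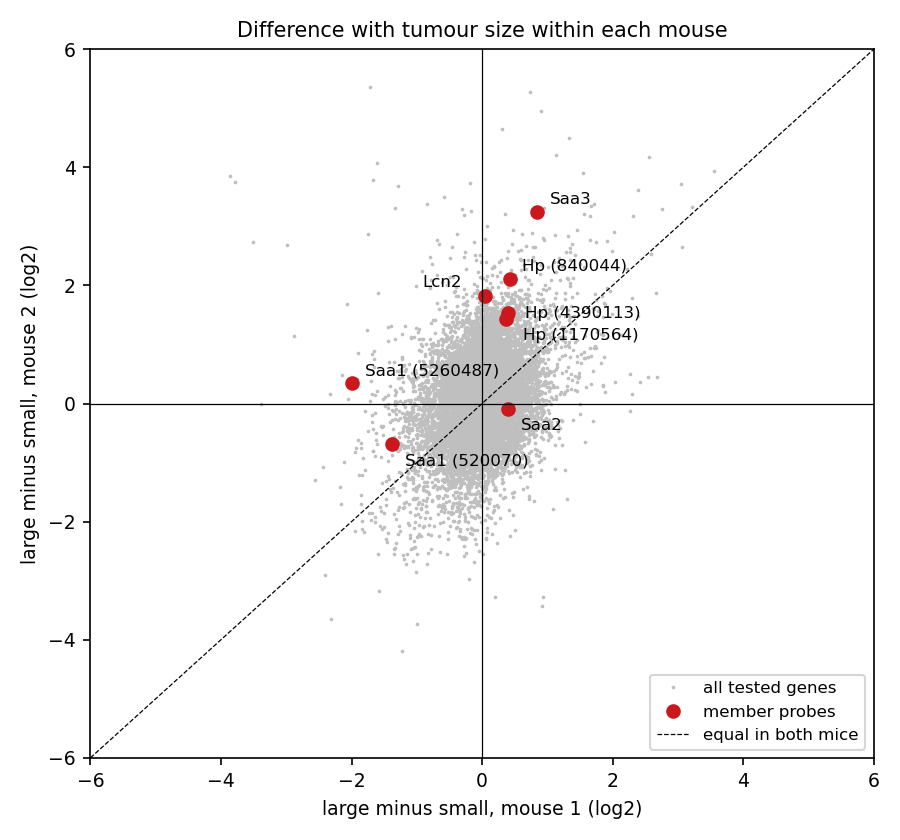
Normalized log2 difference between the large and the small pool in mouse 1 (x axis) and mouse 2 (y axis) for all tested genes (grey) and the 8 tested member probes (red); the dashed line marks equal differences. Saa3, Lcn2 and Hp lie above the line, with differences in mouse 2 of 1.44 to 3.24 and in mouse 1 of 0.05 to 0.84, and undetected arrays enter the Saa1 and Saa2 points at their normalized value.

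The animals also differed from each other. In small tumours the normalized log2 level in mouse 1 lay above that in mouse 2 by 3.47 for Saa3, 2.43 for Hp and 2.28 for Lcn2, and by at least 6.98 for Saa1. Ordered by this difference among 13906 genes, Saa3 was at place 16, Hp at 58 and Lcn2 at 69. Saa1 probe 5260487 has only a bound there and gets no place, and the dimmer Saa1 probe, 1.94 higher in mouse 1, would stand at 127. In large tumours mouse 1 lay above mouse 2 by 1.08 for Saa3, 0.75 for Hp, 0.49 for Lcn2 and 4.85 for Saa1 probe 5260487, and the places were 377, 895, 1776 and 2. All 4 genes were thus closer between the animals in large than in small tumours, and Saa1 remained the farthest apart. This follows by arithmetic from the within-mouse differences given above. For Saa1, near background in both pools of mouse 2, it reflects the lower signal of the large pool of mouse 1. With 1 pool per size and animal, the difference between the effects in the mice had no error and was not tested.

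Genes of similar pattern were ranked by the root mean square difference between centred log2 values over the 4 arrays, among 3930 genes that ranged over at least 1 log2 unit. The nearest to Lcn2 was Lrg1, which encodes leucine-rich alpha-2-glycoprotein, itself an acute phase protein, at 0.064. Lrg1 differed by 0.01 with size in mouse 1 and by 1.82 in mouse 2. Sncg, which encodes gamma-synuclein (0.10), and Rbpms, which encodes an RNA-binding protein (0.14), followed. The nearest to Hp were Fxyd6, a regulator of the sodium pump (0.13), Cxcl1, a chemokine that attracts neutrophils (0.13), and Mustn1 (0.16). Among members, Lcn2 and Hp were 0.19 apart, Saa3 and Hp 0.55, and Saa3 and Lcn2 0.72, whereas Saa1 was at least 2.36 from each of the others. Saa2 ranged over less than 1 log2 unit, so no nearest genes were sought for it.

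The nearest to Saa3 were Cpne8, a copine (0.25), Vip, the neuropeptide vasoactive intestinal peptide (0.33), and Krt17, a keratin (0.40). The nearest to Saa1 were farther off. They were Fabp6, the ileal bile acid binding protein (1.07), Fgf15, the ileal hormone that represses bile acid synthesis (1.32), and Krt84 (1.41). Fgf15 was detected on 2 arrays, those of mouse 1, and Krt17 and Krt84 on 3. Undetected arrays, that of Saa1 included, enter these distances at their normalized value. Fabp6 had a signal of 13412 in the small and 7740 in the large pool of mouse 1, against 72.5 and 250.5 in mouse 2. On a list of distal small intestinal genes, chosen after the values were seen, the median of 8 tested genes lay 2.07 (log2) higher in mouse 1 in small and 1.31 in large tumours, and that of 7 proximal genes differed by -1.72 and -0.74. Their part in the level of Saa1 was not tested.

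**Figure D3:**
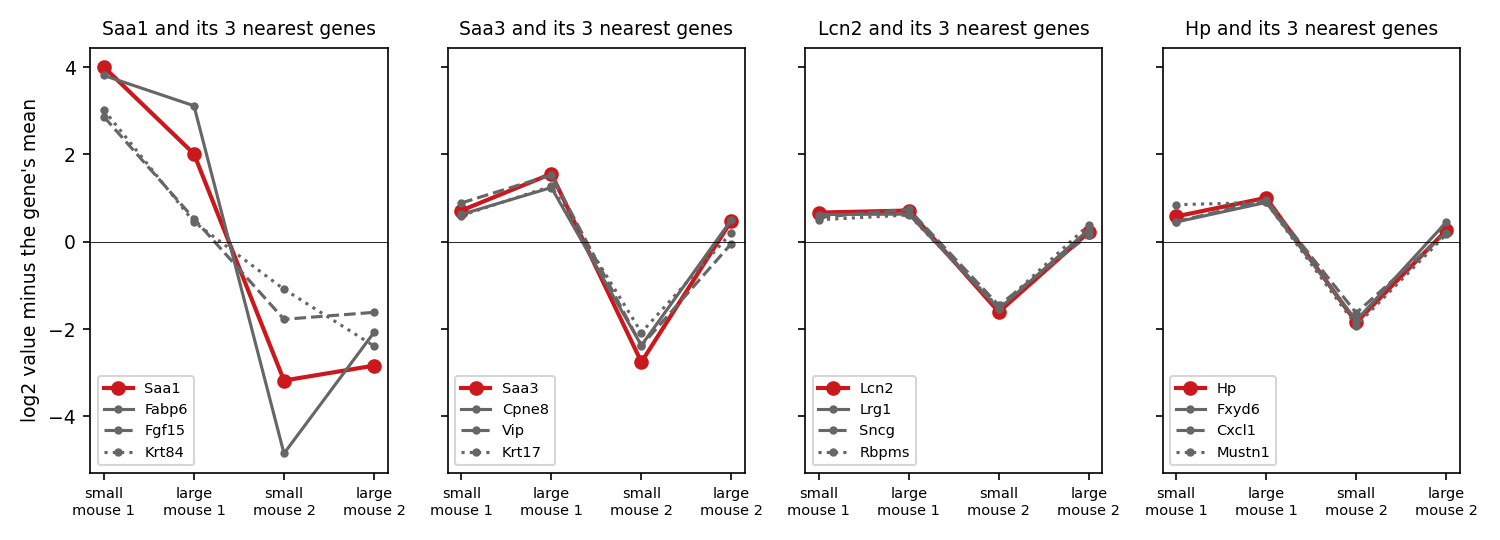
Normalized log2 value minus the gene's own mean on the 4 arrays for Saa1, Saa3, Lcn2 and Hp (red) and the 3 genes nearest to each (grey). Lcn2 and Hp dip in the small pool of mouse 2 together with their nearest genes, and Saa1, Fabp6 and Fgf15 separate the mice. In mouse 2 Fgf15 was not detected in either pool and Saa1 not in the small pool, and these enter at their normalized value.

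Among other acute phase plasma proteins 11 of 26 listed genes were tested, and 10 were on the array and detected on none, among them Crp, Apcs, Orm1, Orm2, Orm3 and Fgb. None of the 11 passed the limma test with or without the block and 6 had higher, 2 lower, signal in large tumours of both animals. The list's median was 0.14 (log2) in mouse 1 and 0.67 in mouse 2. Serpina3n, a protease inhibitor, was 0.96 (log2) higher in the large pool of mouse 1 and 2.01 in that of mouse 2 (limma adjusted p = 0.0973 with the block). The iron hormone gene Hamp differed by 0.29 and by at least 2.28, the lipopolysaccharide-binding protein gene Lbp by 0.12 and 1.39, and the metallothionein gene Mt1 by 0.15 and 1.10. These 4 genes were named after their values were seen. Lower in both mice were Itih3 (-0.77 and -0.21) and Ambp (-0.03 and -0.21). Opposite signs were seen for C3 (0.49 and -0.41), Cp (-0.07 and 0.47) and Mt2 (-0.16 and 1.14).

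Of the inducing cytokines, receptors and transcription factors, 30 of 35 were tested and none passed with or without the block and 6 had higher, 8 lower, signal in large tumours of both animals. The list's median was -0.06 (log2) in mouse 1 and 0.01 in mouse 2. Il1b, which encodes interleukin 1 beta, had a signal of 862.3 in the small and 647.7 in the large pool of mouse 1, and 235.6 and 810.2 in mouse 2. It was lowest in the small pool of mouse 2, as Saa3, Lcn2 and Hp were, and it differed in opposite directions in the mice (-0.45 and 2.14). Il6 stayed near background, with signals of 53.8 to 78.5 and detection on 3 arrays, and Tnf had 111.3 to 153.0. Il22, Il17a and Il17f were not detected on any array. Osm, a cytokine of the interleukin 6 family named after its values were seen, differed by 0.91 in mouse 1 and was detected in the large but not the small pool of mouse 2. Stat3, the transcription factor of that family, differed by 0.00 and -0.82, and its feedback inhibitor Socs3 by -0.61 and -0.48.

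Of 8 tested serum amyloid A receptors and lipoprotein partners, 2 were higher in both mice and 6 had opposite signs. Of 3 lipocalin 2 partners 2 were higher and 1, Mmp9, was lower (-0.62 and -0.29). Of 7 haptoglobin and haem partners 3 were higher and 3 lower. None on these lists passed the limma test with or without the block. Fpr2, a receptor of serum amyloid A on phagocytes, had a log2 difference of -0.17 in mouse 1 against 1.18 in mouse 2, and the receptor genes Tlr2 and Tlr4 by 0.01 and -0.60, and by 0.30 and 0.57. Fpr1 and Cd36 were not detected on any array, and Scarb1, P2rx7 and Ager were detected on at most 2. The Lcn2 receptor gene Slc22a17 was near background, with signals of 59.6 to 72.8, and Lrp2, the other receptor, was not detected. Bdh2, an enzyme linked in mammals to the making of a siderophore, was at least 2-fold higher in large tumours in both mice, by 1.27 and 1.49 (limma adjusted p = 0.0941 with the block). Cd163, the receptor for haemoglobin bound to haptoglobin, was detected on 1 array only, with signals of 48.3 to 77.5. Haem oxygenase, Hmox1, had signals of 91.4 and 74.6 in mouse 1, small then large, and 99.7 and 57.1 in mouse 2, where the large pool was not detected.

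Epithelial genes induced by interleukin 22 or interleukin 17 did not move as a block. Of 17 tested, Lcn2 among them, 6 were higher and 8 lower in both mice, against 30.7% and 26.7% of all 13906 tested genes. In the limma test with the mouse as a block 57 of all tested genes rose in large tumours, and 2 of them were on this list. These were the calgranulin genes S100a8 (1.72 in mouse 1 and 3.38 in mouse 2, adjusted p = 0.0206) and S100a9 (1.67 and 3.34, adjusted p = 0.0218); neither passed without the block, and both are also made in quantity by neutrophils. The fit with the block leaves 1 residual degree of freedom, and its adjusted p-values can be too small. The C-type lectin gene Reg3g had signals of 11200.2 and 5155 in mouse 1 and 2253 and 1626 in mouse 2, small then large, and Reg3b differed by -0.03 and -0.80. Higher in large tumours of both mice were Fut2 (0.81 and 2.66), Cxcl2 (0.67 and 2.67) and Cxcl1 (0.50 and 1.84). Their signals were lowest in the small pool of mouse 2, as those of Saa3, Lcn2 and Hp were. Reg3g, Reg3b, Fut2 and Cxcl2 were named after their values were seen. Over all these lists, 74 tested genes other than the members held 24 that were higher and 21 that were lower in the large pool of each animal. These counts are near the shares of all tested genes, 30.7% and 26.7%.

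**Figure D4:**
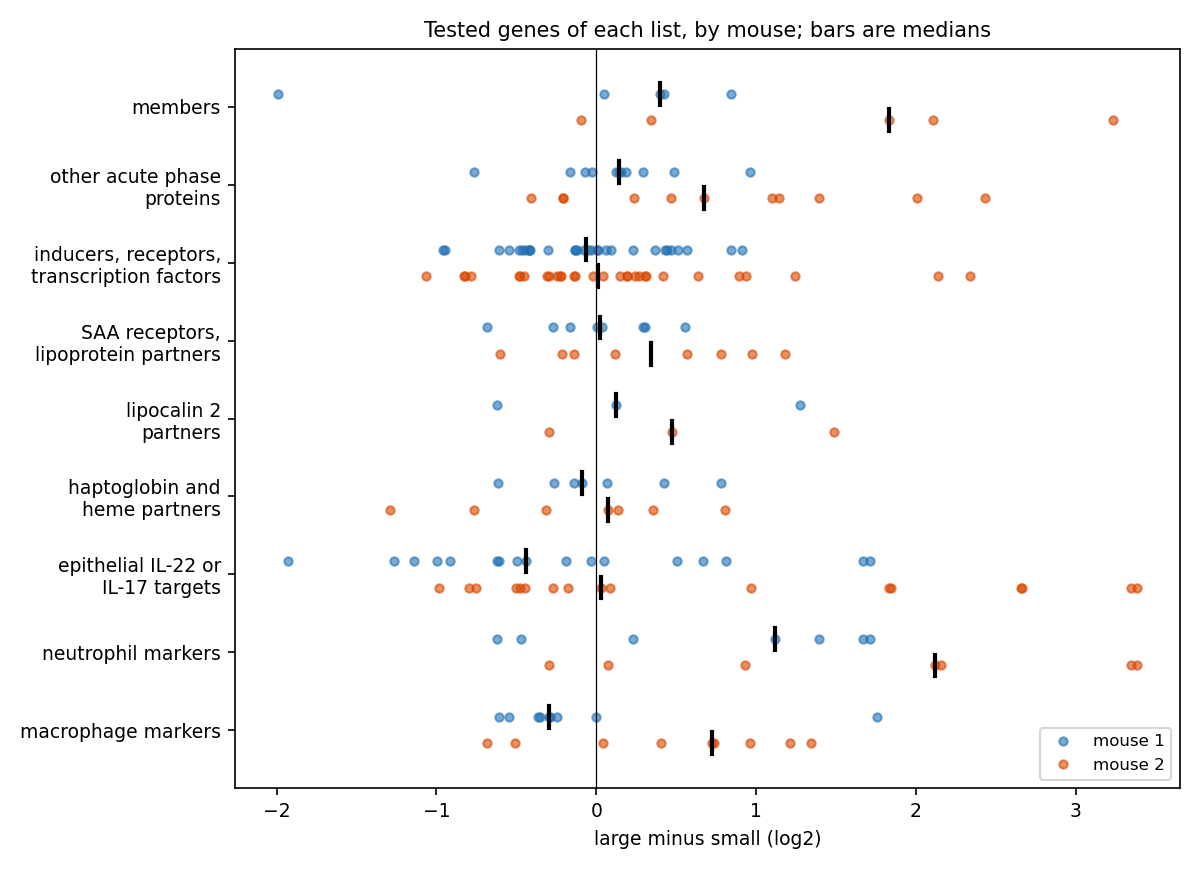
Normalized log2 difference between large and small pools for the tested genes of each list, in mouse 1 (blue) and mouse 2 (orange), with a black bar at each median. The members' median was 0.40 in mouse 1 and 1.83 in mouse 2, while that of the inducers was near 0 in both.

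Markers of cells that can express the members were read beside them. Among hepatocyte markers, Alb, Apoh, Ahsg, Fgb and Tat were not detected on any array, and 4 of 12 were tested, with 1 higher and 2 lower in both mice and medians of -0.39 in mouse 1 and -0.51 in mouse 2. Ttr, the transthyretin gene, passed the limma test with the block (1.91 and 2.75 higher in large tumours, adjusted p = 0.0147). The apolipoprotein gene Apob, which enterocytes also express, differed by -1.14 and -2.03, and the urea cycle gene Cps1 by -0.67 and -1.60, and neither passed. Among fat cell markers Adipoq, Plin1, Lep, Cfd and Fabp4 were not detected on any array, and 3 of 9 were tested, with 1 higher and 2 lower in both mice. Pparg, a nuclear receptor of fat cells that intestinal epithelium also expresses, had signals of 548.1 and 412.1 in mouse 1 and 1041 and 676.2 in mouse 2, small then large, and the lipid droplet gene Cidec had 295.1, 144.0, 394.3 and 239.3 in the same order. Of 13 listed neutrophil markers 7 were tested, and 5 were higher and 1 lower in both mice. Their summed signal went from 3418 (small) to 5579 (large) in mouse 1 and from 2174 to 8389 in mouse 2. Most of it came from S100a8, S100a9 and Ltf, while Ngp, Mmp8 and Cxcr2 were not detected. The marker lower in both mice was Mmp9 (-0.62 and -0.29). Camp differed by -0.47 in mouse 1 and was not detected in mouse 2. Retnlg, a neutrophil marker, passed the limma test with the block (1.39 and 2.12, adjusted p = 0.0437).

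Of 11 listed macrophage and monocyte markers 9 were tested, 1 was higher and 2 were lower in both mice, and none passed. Chil3, a chitinase-like protein of macrophages, was the higher gene, by at least 1.38 in mouse 1 and by 1.22 in mouse 2. The list's summed signal was 5322 (small) and 4151 (large) in mouse 1 against 2288 and 2672 in mouse 2. Their median log2 level in small tumours was 1.57 higher in mouse 1 than in mouse 2, and 0.65 higher in large tumours. C1qb, a complement gene of macrophages, had signals of 1028 and 804.2 in mouse 1 and 305.4 and 492.9 in mouse 2, small then large. Its signal was thus lowest in the small pool of mouse 2, as were those of Cd68, C1qa, C1qc and Lyz2. Csf1r, Adgre1 and Mrc1 had their lowest signal in the large pool of mouse 2, and Chil3 in the small pool of mouse 1. Of 7 tested fibroblast markers 6 were higher in large tumours of both mice, with medians of 0.55 in mouse 1 and 0.79 in mouse 2. Between the animals, the fibroblast median lay 1.15 higher in mouse 1 in small and 0.86 in large tumours. Lum, which encodes the matrix protein lumican, passed the limma test with the block (1.72 and 1.61 higher in large tumours, adjusted p = 0.0439). The 10 epithelial markers had a summed signal of 66020 to 78803 over the 4 arrays, and their median log2 difference with size was -0.19 in mouse 1 and -0.23 in mouse 2. Enterocyte markers had lower values: of 7 tested 6 were lower and none higher in both mice, with medians of -1.21 and -1.42, and none passed. The 5 that were at least 2-fold lower in both were Alpi, Apoa4, Apob, Anpep and Mttp, and the list's summed signal was 31107 (small) and 17238 (large) in mouse 1 and 61103 and 40193 in mouse 2. Of 9 listed T, B and plasma cell markers 3 were tested, and none passed. In both mice 2 were lower and 1 had opposite signs, with medians of -1.18 in mouse 1 and -0.57 in mouse 2. Cd3e, a T cell receptor subunit, differed by -1.18 and -1.34. The part of these cells in the levels of Saa3, Lcn2, Hp and Saa1 was not tested.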

How the data were processed

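Total RNA of 4 tumour pools was hybridised to Illumina mouse bead arrays. The authors deposited linear bead signals (intensity), their standard errors, bead counts and detection p-values, neither normalized nor background-subtracted, per the file headers (BeadStudio gene expression module 3.2.6, per the submitters' processing notes). A matrix of normalized intensity values for 15274 probes was also deposited, whose making the sources used here do not describe. The template's example sheet was not used.

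Here the signals went through limma's neqc (version 3.58.1, R 4.3.3), which uses normexp with detection p-values, an offset of 16, quantile scaling and log2. Probes detected (p under 0.05) on at least 2 of 4 arrays were tested (20214 probes, 13906 genes, each by its brightest tested probe). Symbols were updated through RefSeq. The test of large against small tumours used lmFit and eBayes, two-sided, Benjamini-Hochberg adjusted over all probes (threshold 0.05). The mouse as a replicate block was an alternative; the pairing comes from the labels, and deviations from the group means correlated across genes within a mouse (r = 0.251). Since the pools came from 2 animals, p-values rest on few residual degrees of freedom. A within-mouse difference with 1 undetected array is a bound against the lowest detected log2 value of that array. Members and lists were chosen with earlier results of these data known. Named were all members, the genes of each list (the distal and proximal ones aside) that passed or were at least 2-fold apart in both mice, inducers and receptors, and the 3 genes nearest in pattern. In simulated data of this layout, set changes of 2 or 3 log2 units had the same size in both mice. Their spread between mice was smaller than that of Saa1, Saa3, Lcn2 and Hp. The fits recovered the direction and mean size of these changes, which does not show how well they find changes in the members. In some draws the fit with the block also called more unchanged features than its threshold allows. Its calls are therefore less certain than their adjusted p-values. Promoters are RefSeq's (GRCm38.p6), aligned with Biopython 1.88. The number of arrays limits the precision.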

Additional observations from a re-analysis of the deposited data

How the results depend on the processing

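No member passed the test without the mouse as a block under any setting tried. With the mouse as a replicate block, Saa3 passed with median scaling (log2 difference 1.96, limma adjusted p = 0.000248) and with the strict filter of detection on all 4 arrays (2.04, adjusted p = 0.00245), settings chosen after seeing the data; it did not pass with the block as planned (0.0726). Leaving out 1 pool at a time, the difference ran from 0.30 to 3.77 for Saa3, from 0.05 to 2.48 for Hp, from -0.20 to 2.08 for Lcn2, from -4.41 to 2.77 for Saa1 and from -0.11 to 0.41 for Saa2; for the dimmer Hp probes it ran from -0.052 to 1.98 and from -0.24 to 2.05. Such a fit compares sizes in which the 2 animals are not equally present, and assumes that the lone pool varies like the others. Saa1 changed sign without the small pool of mouse 1 (2.77) or the large pool of mouse 2 (1.60). All 56 within-mouse member values under other corrections and scalings, deposited signals included, lay within 1 SD between the mice of the reported value. That SD ran from 0.35 for Saa2 to 1.69 for Saa3. It exceeded the mouse 1 differences of Saa3, Lcn2 and Hp, so lying within it is a weak check. For Saa3 the values ran from 0.76 to 0.85 in mouse 1 and from 2.95 to 3.24 in mouse 2. Of the 56 values, 2 had the other sign, both for Lcn2 in mouse 1.

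Over all probes, the count past the threshold was 0 without and 120 with the replicate block, 2 with median scaling, and 0 to 70 without 1 pool. With the block it was 36 with the authors' values, 457 with median scaling and 322 with the strict filter, and 0 when genes did not share their spread, without background correction, without the filter or with the offset at 50. Of the 74 pathway genes, 0 passed without and 2 with the block, 0 to 2 without 1 pool, and with the block 2 with the authors' values, 9 with median scaling and 6 with the strict filter; the cause was not tested. The slide as a block was not run, since the column names give no slide. Saa1, Saa2 and Saa4 are not in the authors' matrix. Signals of Saa2 and Saa4 near background limit what can be read from them.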
